A study of Gallus gallus with 8 samples.

Results

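The miRNAs described here run from miR-1451 to miR-1816 in the chicken miRNA catalogue, without miR-1811, and were measured in ectoderm dissected from the frontonasal ectodermal zone of chick embryos. This zone is a signalling region of the embryonic face. Members were the features of the deposited table in that range, any letter or arm, with reads in at least 4 of the 8 libraries. The rule kept 94 of the 350 features in the range and of the 994 features in all. Members were thus chosen by the measured detection values themselves, so levels and detection are given as a description and without a test. Untreated Rhode Island Red embryos were compared at stage HH18 in the Hamburger-Hamilton series, after 48 h of incubation and before Sonic hedgehog (SHH) is expressed in the zone, and at HH22 (72 h), after its onset. Each stage had 4 libraries, numbered 5 to 8 at HH18 and 1 to 4 at HH22, and each library pooled 2 chicks. All embryos were normal and carried no transgene or graft per the labels, and pooling leaves the spread between single embryos unknown.

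A miRNA is cut from a hairpin precursor by Drosha and Dicer, and either arm of the hairpin (5p or 3p) can be loaded into an Argonaute protein, where it guides silencing of matching mRNAs. The numbers were given in order of naming. Many numbers in this range were given after deep sequencing of small RNA from chick embryos, and many of these miRNAs have no known target or role. Many miRNA hairpins lie in introns of protein-coding genes and can be processed from the host transcript.

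The libraries held 6276121 to 31318393 reads at HH18 and 46912793 to 88471588 at HH22, so depth and stage cannot be told apart. Levels are given as normalized counts, which are reads divided by a size factor for the library. A floor of 3 reads stood at 2.40 to 12.5 normalized counts in the HH18 libraries and 1.01 to 1.96 at HH22, and floors cover counting error only. As a check of the tissue, 8 of 8 listed epithelial miRNA features (miR-200a, miR-200b, miR-203a, miR-205a and miR-429) had reads. Their summed level was 263829.8 to 375392 at HH18 and 453494 to 612253 at HH22. The 6 mesenchymal features summed to 25749.8 to 29651 and 40465 to 44706, and the 9 neural features to 18746 to 28835 and 16222 to 18058. Features within a list did not all change alike, which the sums do not show. In the limma fit described below, the log2 fold change of HH22 against HH18 was -1.20 for miR-9-5p and 1.25 for miR-219a. In the epithelial list it was 1.69 for miR-203a and -1.18 for miR-200b-5p. All 8 blood and endothelial features had reads. They summed to 14371 in HH18 replicate 5 against 233 to 2084 in the other libraries. The 6 striated muscle features reached at most 80.9, with miR-133a-5p and miR-1a-1-5p at 0 reads in every library. The part of these other cell types and of depth in the results below was not tested. In tissue of this kind, fewer cells of a type and less RNA per cell cannot be told apart.

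Most catalogue entries in the range were scarce or had no reads. Of the 350 features, 138 had 0 reads in all 8 libraries, 56 had reads in 1 library, 35 in 2, 27 in 3 and 31 in all 8. Reads in at least 4 libraries were found for 26.9% of the features in the range, for 72.2% of the 263 features with lower numbers and for 22.04% of the 363 numbered from miR-2000 upward. The 21 features with reads in exactly 4 libraries were just inside the rule. By mean level they were led by miR-1682 with 34.1 normalized counts, miR-1718 with 25.9 and miR-1754-5p with 22.8. The 27 features with reads in exactly 3 libraries were just outside it. They were led by miR-1711 with 20.8, miR-1553-5p with 16.95 and miR-1452 with 14.9. The leading levels were thus 22.8 to 34.1 just inside the rule and 14.9 to 20.8 just outside it. miR-1682 had 139 and 125 reads in HH18 replicates 7 and 8, 0 in the other HH18 libraries, and 1, 3, 0 and 0 at HH22.

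**Figure D1:**
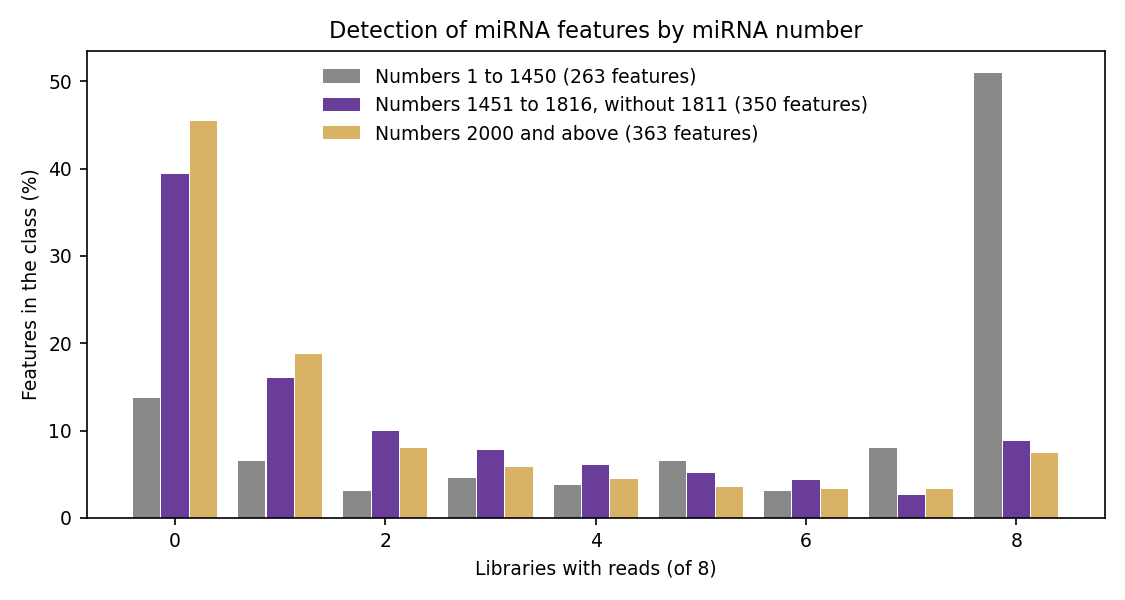
Share of features (%, vertical axis) by the number of libraries with reads (horizontal axis) for 3 ranges of miRNA numbers. Of the 350 features from miR-1451 to miR-1816, 138 sit at 0 libraries and 31 at 8.

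The 94 members carry 81 numbers. Of these features, 49 are listed without an arm, 21 as 5p and 24 as 3p. The number of members with reads was 52, 44, 77 and 63 in HH18 replicates 5 to 8 and 89, 82, 88 and 80 in HH22 replicates 1 to 4. When every library was thinned to 6276121 reads, it was 50, 44, 70 and 58 at HH18 and 75, 71, 81 and 63 at HH22, and 76 members then had reads in at least 4 libraries. After thinning, HH18 replicate 7 (70 members) lay within the HH22 range and the other HH18 libraries below it. The members were chosen at full depth, where reads in the 4 HH22 libraries alone sufficed. Thinning does not undo that choice, so no stage difference is read from these numbers. Together the members made up 0.181%, 0.192%, 0.229% and 0.152% of the reads in HH18 replicates 5 to 8. At HH22 the share was 0.150%, 0.146%, 0.113% and 0.0918%. Every HH22 library was thus below every HH18 library in this share, which also depends on how much of each library the few dominant miRNAs took. The gap was narrow, from 0.150% to 0.152%. Much of the share came from miR-1677-5p, described below, so the drop is not read as a change of the members as a group.

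A handful of hairpins supplied most of that signal. miR-1677-5p alone held 43.3% of the members' normalized counts, the first 5 members 76.0% and the first 10 held 89.1%. Only 8 members averaged at least 1000 normalized counts, 17 averaged 100 to 1000, 48 averaged 10 to 100 and 21 were under 10. Mature miRNAs are all of nearly the same length, so their counts were compared with no length correction. Among all 994 features, miR-1677-5p ranked 27th by mean level with 19491 normalized counts. miR-1629 followed with 6568 (38th), miR-1454 with 3417 (51st), miR-1552-5p with 2831 (57th) and miR-1779 with 1921 (62nd). miR-1720-3p had 1717, miR-1677-3p 1422, miR-1456-5p 1269, miR-1761 877 and miR-1720-5p 629.

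**Figure D2:**
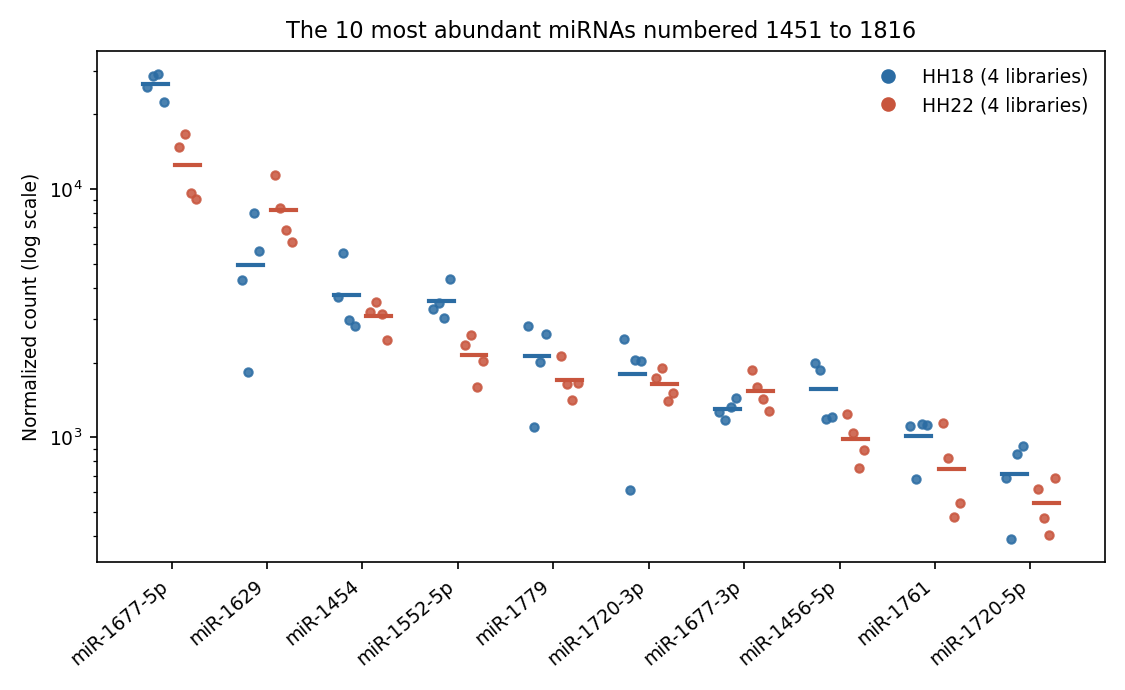
Normalized counts (log axis) of the 10 most abundant miRNAs from miR-1451 to miR-1816, with 1 point per library and a bar at the mean of the 4 libraries of a stage. The stages do not overlap for miR-1677-5p and miR-1552-5p, while for miR-1629 they do.

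In the RefSeq annotation of the GRCg7b assembly, used here only for names and neighbours, 88 of the 94 members matched a miRNA gene name, and they came from 76 hairpin genes. Of these, 58 lay inside a protein-coding gene (76.3%), against 63.8% of the 152 hairpin genes of features with lower numbers that were equally detected and 85.1% of the 67 numbered from miR-2000 upward. That table gives no strand, so it does not show which of these hairpins are read in the direction of the gene around them. MIR1677 lies within EPHA7, which encodes an ephrin receptor, MIR1552 within MAP4K4, a protein kinase gene, and MIR1454 within RPS12, a ribosomal protein gene. MIR1456 lies within LYRM7, MIR1458 within U2SURP, a splicing factor gene, and MIR1674 within POLL, which encodes a DNA polymerase. MIR1629, MIR1779, MIR1761, MIR1720 and MIR1648 lay in no other gene. The entry for miR-1563 carries the symbol SNORD69, the name of a small nucleolar RNA, and lies within GNL3.

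Some members neighbour better-known miRNA genes. MIR1720 neighbours MIR7-2, with 0 genes between them. The features miR-7 and miR-33-5p are not divided by gene copy, so their levels cannot be assigned to MIR7-2 or MIR33-2 alone. miR-7, a miRNA known from neurons and endocrine cells, averaged 5216 ± 712 (SD) over the HH18 libraries and 4374 ± 776 over the HH22 libraries (n = 4 each), well above miR-1720-3p. MIR1583 neighbours MIR2954 inside XPA, with 0 genes between them. miR-2954, a miRNA of the bird Z chromosome, had 37090 ± 8548 and 27779 ± 4164 (SD, n = 4), whereas miR-1583 had 17 reads in HH18 replicate 7 and 0 to 36 in the other libraries. MIR1682 neighbours MIR33-2, and MIR1552 neighbours MIR6543. MIR1788 lies inside FEV, with 1 gene between it and MIR375. miR-375, known from endocrine cells, stood at 5963 ± 1400 and 6210.1 ± 851 (SD, n = 4), while miR-1788-5p averaged 31.5 over the 8 libraries. Other neighbours also had unlike means over the 8 libraries. miR-1552-5p averaged 2831, beside miR-6543-5p with 30.5 and miR-6543-3p with 10.4. miR-1583 averaged 6.26, and miR-2131-3p and miR-2131-5p, also beside it, 944 and 92.2. The pairs given next were picked for their close means. Their stage means differed in opposite directions, which is given as a description. miR-1720-5p averaged 629 over the 8 libraries and miR-3529, also beside it, 633, while the other arm, miR-1720-3p, averaged 1717. miR-1682 averaged 34.1 and miR-33-5p 38.9. By stage, miR-1720-5p averaged 712 at HH18 and 546 at HH22, against 477 and 789 for miR-3529. miR-1682 averaged 67.5 at HH18 and 0.555 at HH22, against 5.01 and 72.9 for miR-33-5p. The stages overlapped for miR-1720-5p, and neither it nor miR-3529 passed the stage test described below, whereas miR-33-5p did. miR-1682 was not tested, and its HH18 mean came from 0, 0, 111 and 159 normalized counts in replicates 5 to 8.

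The stages were compared with limma-trend on log2(normalized count + 1), for every feature that reached 1 normalized count in 4 or more libraries, with p-values adjusted over all 356 such features. Of the 94 members 84 were tested. Past an adjusted p of 0.05, 5 members were lower at HH22 and 4 were higher. The 4 higher ones met the membership rule and the filter through the HH22 libraries alone, and 3 of them had 0 HH18 reads, so their direction was set by the choice and nothing is read from their calls. These 9 are 10.7% of the tested members, against 14.6% of all tested features (9.83% higher and 4.78% lower). The stages did not overlap for 12 tested members (14.3%), 8 lower and 4 higher at HH22, against 20.2% of all tested features (8.71% lower and 11.5% higher). At levels of at least 100 normalized counts, 5 of 25 members were lower and 0 were higher, against 8.89% lower and 12.8% higher (21.7% in all) among the 180 features at that level. At that level 7 members were lower without overlap and 0 were higher, against 15% and 14.4%. The median log2 fold change of these 25 was -0.34, against 0.09 for the 180. It was also -0.34 for the 17 features numbered from miR-2000 upward at that level, and 0.13 for the 132 with lower numbers. The lower median is thus not particular to the members. Under 100 normalized counts, 4 of 59 members were higher (6.78%) and 0 were lower, against 6.82% and 0.568% (7.39% in all) of the 176 features at that level. There 4 members were higher without overlap and 1 was lower, against 8.52% and 2.27%. Their medians were 1.29 and 1.05. Scarce features could meet the filter through the deeper HH22 libraries alone, so a median above 0 can be set in part by the choice. No rise is read from these medians. After thinning to equal depth, the median of all tested features was 0.13, against 0.38 in the main fit. Scaling to library sizes that leave out the 5 most abundant features shifted the median of all tested features from 0.38 to -0.05, and 11 members were then lower and 4 higher. Over all 355 features tested under that scaling, 47 were lower and 24 higher, so calls turned towards lower over all features too.

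**Figure D3:**
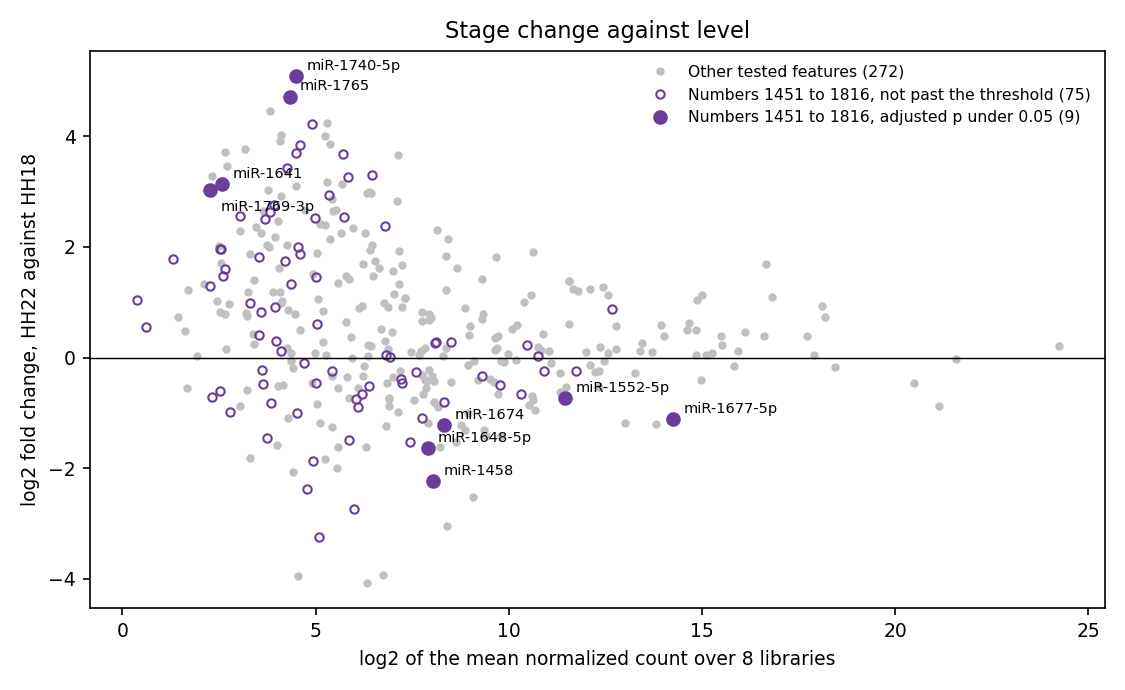
log2 fold change between the stages (vertical axis, HH22 against HH18) against the log2 mean normalized count (horizontal axis) for all 356 tested features. Filled points are the 9 miRNAs from miR-1451 to miR-1816 that passed, 5 lower at HH22 at levels above 100 normalized counts and 4 higher at lower levels.

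The most abundant member, miR-1677-5p, fell between the stages. It stood at 25808, 28588, 29056 and 22329 normalized counts in HH18 replicates 5 to 8 and at 14779.6, 16613, 9673 and 9082 in HH22 replicates 1 to 4. Every HH22 library was below every HH18 library. The mean was 26445 ± 3096 at HH18 and 12537 ± 3732 at HH22 (SD, n = 4), 2.11-fold higher at HH18 (limma log2 fold change -1.12 ± 0.20 SE, adjusted p = 0.00407). It passed in 19 of 19 alternative settings, with log2 fold changes from -1.58 to -0.98.

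The other arm of the hairpin did not pass the test. miR-1677-3p stood at 1265, 1175, 1329.8 and 1441 at HH18 and 1875, 1587, 1422 and 1280.0 at HH22. The stages overlapped (log2 fold change 0.23, SE 0.18, 95% interval -0.18 to 0.64, limma adjusted p = 0.469), and scaled without the 5 most abundant features the value was -0.23. The 5p arm took a smaller part of the hairpin's reads in every HH22 library than in any HH18 library. It made up 95.3%, 96.1%, 95.6% and 93.9% of the reads of both arms in HH18 replicates 5 to 8 and 88.7%, 91.3%, 87.2% and 87.6% in HH22 replicates 1 to 4. The log2 ratio of 5p to 3p reads went from 4.34 ± 0.28 to 2.99 ± 0.28 (SD, n = 4), with no overlap (two-sided exact permutation test, p = 0.0286, which is the lowest value 4 against 4 libraries allow, and 0.114 adjusted over 12 hairpins). This ratio is taken within a library and does not depend on scaling between libraries.

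miR-1552-5p, the fourth most abundant member, also fell. It had 3281, 3475, 3009.6 and 4333 normalized counts at HH18 and 2357, 2579, 1589 and 2026 at HH22, with no overlap. The means were 3524 ± 572 and 2138 ± 431 (SD, n = 4; limma log2 fold change -0.73 ± 0.19 SE, adjusted p = 0.0299). The call held in 14 of 19 alternatives, with a highest limma adjusted p of 0.0847. Dropping HH18 replicate 8 ended the call (limma adjusted p = 0.0714), as did dropping HH22 replicate 1 (0.0505), 3 (0.0802) or 4 (0.069). Its partner miR-1552-3p pointed the other way without passing. It had 57.7, 0, 131 and 92.9 at HH18 and 145.3, 166, 130.2 and 168 at HH22 (limma log2 fold change 2.38 ± 1.38 SE, adjusted p = 0.322). The 5p share of the hairpin was 95.8% to 100% at HH18 and 92.4% to 94.2% at HH22, again with no overlap. The log2 ratio was 6.38 ± 2.28 and 3.79 ± 0.23 (SD, n = 4; exact permutation p = 0.0286, adjusted 0.114). HH18 replicate 6 had 0 reads of the 3p arm, so its ratio of 9.70 depends on the added read.

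miR-1674 showed the tightest values of the members that passed. Its 4 HH18 libraries held 515, 460.0, 404 and 414 normalized counts and its 4 HH22 libraries 185, 189, 201 and 192. The means were 448 ± 50.9 and 192 ± 6.58 (SD, n = 4), 2.34-fold higher at HH18 (limma log2 fold change -1.21 ± 0.30 SE, adjusted p = 0.0216). The log2 fold change was -1.20 to -1.24 without any single HH22 library, where the call was lost (limma adjusted p = 0.0568 to 0.079).

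miR-1458 and miR-1648-5p fell further at lower levels. miR-1458 had 379, 627, 252 and 414 normalized counts at HH18 and 25.8, 74.7, 192 and 129.8 at HH22. Its means were 418 ± 156 and 106 ± 71.6 (SD, n = 4; limma log2 fold change -2.23 ± 0.63 SE, adjusted p = 0.0361). The call held in 11 of 19 alternatives. It did not pass when HH18 replicates 5, 6 or 8 or HH22 replicates 1, 2 or 4 were dropped singly (limma adjusted p = 0.0534, 0.0887, 0.0805, 0.0761, 0.101 and 0.0562). miR-1648-5p had 309, 335, 436 and 341 at HH18 and 89.9, 129, 71.0 and 196 at HH22. Its means were 355 ± 55.7 and 122 ± 55.4 (SD, n = 4; limma log2 fold change -1.63 ± 0.43 SE, adjusted p = 0.0304). The call held in 13 of 19 alternatives. It did not pass when HH18 replicates 7 or 8 or HH22 replicates 1, 2 or 3 were dropped singly (limma adjusted p = 0.0578, 0.0591, 0.0863, 0.079 and 0.0865). Neither miRNA overlapped between the stages.

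Another 3 members were lower in every HH22 library than in any HH18 library without passing. Under the scaling that leaves out the 5 most abundant features, miR-1464, miR-1712-3p and miR-1563 did pass (limma adjusted p = 0.0447, 0.0394 and 0.0456). That scaling turned calls towards lower over all features, and miR-1712-3p and miR-1563 passed in no other of the 19 alternatives. miR-1464 also passed with voom (0.0442), after thinning (0.0189) and on the deposited log2 values (0.0444). miR-1464 had 78.5, 176, 67.9 and 115 normalized counts at HH18 and 4.70, 18.2, 13.6 and 33.9 at HH22 (limma log2 fold change -2.74 ± 0.92 SE, adjusted p = 0.0781). miR-1712-3p had 229, 355, 341 and 227 at HH18 and 184, 166, 64.8 and 149 at HH22 (limma log2 fold change -1.10 ± 0.46 SE, adjusted p = 0.162). MIR1712 lies within TTK, a mitotic kinase gene. miR-1563, the SNORD69 entry, had 561, 527, 296 and 274 at HH18 and 263, 267, 184 and 201 at HH22 (limma log2 fold change -0.80 ± 0.37 SE, adjusted p = 0.199). The gap between the stages was narrow for miR-1563, from 267 to 274.

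The 4 members counted as higher at HH22 were all scarce, and 3 of them had 0 reads in every HH18 library. Because the rule asks for reads in 4 libraries, a member with no HH18 read could enter only through all 4 HH22 libraries, so its direction was set by the choice. There were 4 such members, miR-1740-5p, miR-1641, miR-1769-3p and miR-1623, and the last was not tested. Their values are a description, and no test is given for them. Summed over a stage, miR-1740-5p had 0 reads at HH18 and 348 at HH22, at least 39.95-fold higher against a floor of 3 reads over the HH18 libraries. It had 36.6, 6.91, 84.7 and 51.5 normalized counts in HH22 replicates 1 to 4. On the same floor, miR-1623 was at least 18.5-fold higher at HH22, miR-1641 at least 10.1-fold and miR-1769-3p at least 8.61-fold. miR-1641 had 4.70, 7.53, 32.97 and 2.61 normalized counts in HH22 replicates 1 to 4, and miR-1769-3p had 7.38, 2.51, 23.3 and 5.22. miR-1765 had 1 read in HH18 replicate 5, 0 in the other HH18 libraries and 40, 98, 59 and 76 reads at HH22. It too would have entered through the HH22 libraries alone. Its pooled ratio of 94.0 rests on 1 HH18 read and is a description only, since its direction too was set by the choice. MIR1765 lies within STXBP4.

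**Figure D4:**
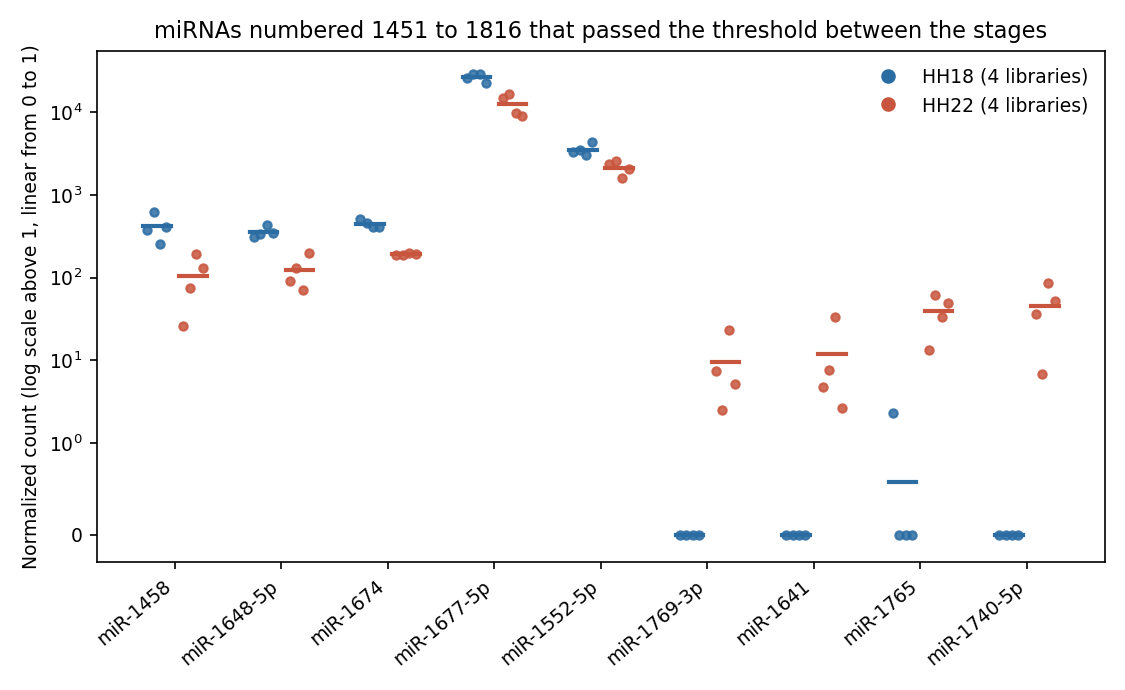
Normalized counts by library (log axis above 1, linear from 0 to 1) of the 9 miRNAs from miR-1451 to miR-1816 past the threshold, ordered by log2 fold change; bars are means of 4 libraries. The 5 on the left are lower in every HH22 library, and 3 of the 4 on the right are at 0 in all HH18 libraries.

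Other members had reads in all 4 HH22 libraries and in a single HH18 library. They too met the membership rule and the filter through the HH22 libraries alone. Their values are a description, and no test is given for them. miR-1753 had 0, 0, 44.0 and 0 normalized counts in HH18 replicates 5 to 8 and 39.9, 46.5, 41.5 and 66.5 at HH22. miR-1791-3p had 45.6 in HH18 replicate 7, 0 in the other HH18 libraries, and 32.5, 35.2, 31.8 and 48.9 at HH22. miR-1731-5p showed the same layout, with 41.6 in HH18 replicate 7 and 21.5 to 42.7 at HH22. HH18 replicate 7 was the deepest HH18 library and held the only HH18 reads of miR-1753, miR-1791-3p and miR-1731-5p. Without it all 3 are at 0 at HH18. In miR-1651-3p the HH18 reads were in replicate 8, with 30.5 normalized counts, against 13.8 to 66.5 at HH22. The lowest log2 fold change among the tested members was that of miR-1741 (-3.24 ± 1.68 SE, limma adjusted p = 0.261). It had 0, 192, 34.4 and 28.0 at HH18 and 0.336, 0, 17.6 and 0 at HH22. The log2 fold change of miR-1722-5p was -2.37 (SE 1.58) and that of miR-1559-3p -1.88 (SE 1.81), with overlapping stages.

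The other abundant members did not pass. miR-1629 had 4313, 1827, 8007 and 5607 normalized counts at HH18 and 11431, 8419, 6842 and 6096 at HH22 (limma log2 fold change 0.88 ± 0.39 SE, adjusted p = 0.181). miR-1456-5p had 1983, 1865, 1181 and 1204 at HH18 and 1239, 1045, 751 and 885 at HH22 (limma log2 fold change -0.65 ± 0.25 SE, adjusted p = 0.117). miR-1456-5p passed as lower under the scaling that leaves out the 5 most abundant features (limma adjusted p = 0.0141), and in no other of the 19 alternatives. miR-1761 also passed as lower in 1 of the 19 alternatives (limma adjusted p = 0.0422). The 95% interval of the log2 fold change was -0.73 to 0.25 for miR-1454, -0.88 to 0.38 for miR-1779, -1.18 to 0.20 for miR-1761, -1.06 to 0.38 for miR-1720-5p and -0.81 to 0.88 for miR-1720-3p. HH18 replicate 6, the shallowest library, was the lowest HH18 value for miR-1629, miR-1779, miR-1761 and both arms of miR-1720. It was the highest for miR-1454, with 5540.4 against 2816 to 3673.

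Across the 8 libraries, the pattern of miR-1677-5p was closest to those of miR-302b-5p (Pearson r of 0.94 on log2(normalized count + 1)), miR-200b-5p (0.94) and miR-1306-5p (0.93), out of 179 features with a mean of at least 100. For miR-1629 the closest were miR-30c-2-3p (0.97), miR-148a-5p (0.93) and miR-1552-3p (0.91). For miR-1454 they were miR-1434 (0.97), whose RefSeq symbol is SNORD37, miR-455-5p (0.89) and miR-551-3p (0.88). These are descriptions over 8 libraries that share stage and depth differences.

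Both arms of the hairpin are listed in the table for 32 hairpins of the members. The 5p arm had more reads in 16 of them and the 3p arm in 16. In 21 hairpins the lesser arm held under 10% of the reads, and in 10 of these it had 0 reads in all 8 libraries. Both arms were members for 12 hairpins. miR-1720 was the most abundant hairpin with more 3p reads, with a 5p share of 21.6%, 38.9%, 29.4% and 31.1% at HH18 and 26.3%, 19.8%, 22.5% and 31.2% at HH22. miR-1663 was nearly balanced only in summed reads, with 1585 of the 5p and 1494 of the 3p arm in all. By library its 5p share was 54.9%, 57.1%, 50.9% and 71.1% at HH18 and 57.0%, 41.1%, 23.8% and 37.3% at HH22.

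Of the 12 hairpins with at least 10 reads in every library, 0 passed after adjustment in the exact permutation test of the arm ratio. With 4 against 4 libraries the smallest exact p is 0.0286. Adjusted over 12 hairpins, it goes under 0.05 only if most of them reach it. A lack of change is therefore not read from this result. Before adjustment 3 fell under 0.05, namely miR-1677, miR-1552 and miR-1736. The last has 1 read of its 5p arm in all, so its ratio follows the number of 3p reads. The same holds for miR-1456 and miR-1550, which had 0 reads of the 3p arm, and nearly so for miR-1712, with 11 reads of the 5p arm. miR-1663 had a log2 ratio of 0.51 ± 0.54 at HH18 and -0.63 ± 0.85 at HH22 (SD, n = 4; exact permutation p = 0.0857, adjusted 0.147). miR-1451, whose hairpin lies within RNGTT, had 3.51 ± 1.08 and 1.74 ± 0.67 (SD, n = 4; exact permutation p = 0.0857, adjusted 0.147). miR-1648 had 6.78 ± 1.04 and 4.28 ± 2.82, and miR-1720 had -1.23 ± 0.50 and -1.60 ± 0.38 (SD, n = 4). miR-1591 differed by 0.74 between the stages, with SDs of 3.51 at HH18 and 2.02 at HH22. miR-1553 differed by -2.48, with SDs of 2.65 and 1.60 (exact permutation p = 0.171, adjusted 0.229). In some libraries 1 arm had 0 reads, so the ratio there depends on the added read. For the 3p arm of miR-1648 these were HH18 replicates 5, 6 and 8 and HH22 replicate 4. For the 3p arm of miR-1591 they were HH18 replicates 5 and 6 and HH22 replicate 4, and for that of miR-1451 HH18 replicate 6. For the 5p arm of miR-1553 they were HH18 replicates 6 and 7 and HH22 replicates 2, 3 and 4.

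**Figure D5:**
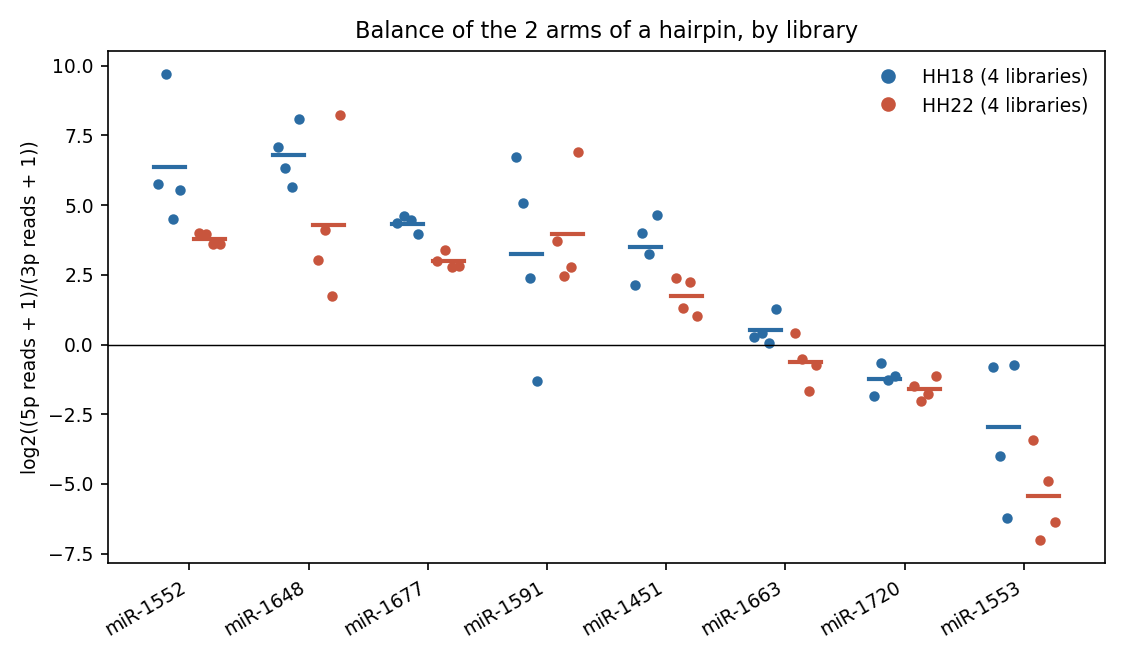
log2 ratio of 5p to 3p reads, with 1 read added to each arm (vertical axis), for 8 hairpins; each point is 1 library and bars are means of 4. The stages do not overlap for miR-1677 and miR-1552, and the point at 9.70 for miR-1552 belongs to a library with 0 reads of the 3p arm. Some points of miR-1648, miR-1591, miR-1451 and miR-1553 also come from libraries with 0 reads of 1 arm and depend on the added read.

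In the scarcer hairpins with both arms among the members, some libraries held both arms and others only 1 of them. miR-1731-5p had 70, 68, 40 and 33 reads in HH22 replicates 1 to 4 and miR-1731-3p had 63, 41, 1 and 17. At HH18, miR-1731-3p had 39 reads in replicate 5 and miR-1731-5p had 52 in replicate 7, each with 0 in the other HH18 libraries. miR-1729-5p had 15, 8, 12 and 1 reads at HH22 and miR-1729-3p had 12, 26, 45 and 50. At HH18 the 5p arm of miR-1729 had 1 read in all and the 3p arm 9, 13, 127 and 1. miR-1728-5p had 47, 0, 6 and 2 reads at HH22 and miR-1728-3p had 30, 33, 55 and 5. miR-1559-5p had 25, 0, 84 and 12 reads at HH22 and miR-1559-3p had 51, 47, 0 and 0, so HH22 replicate 1 alone held both. miR-1462-5p had 1, 7, 20 and 0 reads at HH22 and miR-1462-3p had 30, 7, 98 and 9. In HH18 replicate 6 the 5p arm of miR-1462 had 26 reads and the 3p arm 1.

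Scarce members varied widely between replicates. In 8 members a library had 0 reads although another library of the same stage with no larger size factor had 50 or more. miR-1609 had 0 reads in HH22 replicate 1, the deepest library, and 129 in HH22 replicate 3. miR-1786 had 81 reads in HH22 replicate 2 and at most 2 in any other library. Median coefficients of variation at 10 to 100 normalized counts were 140.1% at HH18 and 73.6% at HH22 for the members, and 132% and 63.9% for features with lower numbers. At 100 to 1000 they were 37.3% and 26.9% for the 17 members, against 59.5% and 22.9%, and at 1000 or more 30.3% and 18.9% for the 8 members, against 19.3% and 13.1%. Features numbered from miR-2000 upward lay close to the members. Their medians were slightly above those of the members at 10 to 100 in both stages. At 100 to 1000 they were 36.3% and 29.7% for 15 such features, and at 1000 or more 28.6% and 18.1% for only 2. The spread is thus not particular to the members.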

How the data were processed

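Small RNA from 8 pools of 2 chicks was sequenced after miRNeasy extraction and TruSeq small RNA library preparation, per the labels' protocols. Named in the submitters' processing notes are kallisto 0.44.0, cutadapt 1.8.1 and bcl2fastq; the sources used here give no reference or build. The values deposited by the authors are log2 values with one lowest value, 8.5213, in every library, and the labels do not say how they were made. Inverting the closed-form variance-stabilizing transformation gave whole multiples of 1 step per library within 0.001 for 100% of values above 0. The inverted values are called normalized counts and the multiples reads; since kallisto estimates counts, reads are rounded estimates, and similar miRNAs can share them. Of all features, 651 had reads and 942 matched a RefSeq name.

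The design planned this limma-trend test of HH22 against HH18 (R 4.3.3, limma 3.58.1, Python 3.11.15, scipy 1.17.1), with a pseudocount of 1, stage as the term, two-sided, Benjamini-Hochberg over all tested features; it was tested on simulated data. Samples were grouped by the labelled stage, and p-values describe pools of chicks. Arm ratios were tested by exact permutation. Alternatives were other filters, pseudocounts, scalings, voom, thinning, the deposited log2 values and leaving out libraries. Named were the 10 most abundant members, those past the threshold, the 5 highest and 5 lowest log2 fold changes and up to 10 without overlap (mean of at least 10), members with both arms, and those at the edge of the rule. Others were chosen after their values were seen: miR-1583 and miR-1788-5p (beside other miRNA genes), miR-1623, miR-1609, miR-1786, miR-1712, miR-1736, miR-1550 and miR-1553. The members and lists were chosen with earlier results of these data known.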

Additional observations from a re-analysis of the deposited data

Results flagged for a closer look

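In 17 values of the named members and in 1 arm ratio, 1 library stood far from the other 3 of its stage. This was judged by Dixon's criterion on the gap over the range, and 92 groups of member values were examined. Chance meets the criterion in about 1 in 20 groups of normally distributed values. In 11 of the 18 cases the other 3 libraries had 0 reads, all of them at HH18. There any read meets the criterion, so the number of cases is not compared with that rate.

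HH18 replicate 7 stood apart with 7.99 normalized counts of miR-1648-3p, 0.799 (1 read) of miR-1728-5p, 41.6 of miR-1731-5p, 44.0 of miR-1753 and 45.6 of miR-1791-3p, and with a log2 arm ratio of -8.74 for miR-1712. HH18 replicate 5 held the only HH18 read of miR-1559-5p, of miR-1729-5p and of miR-1765 (2.31 normalized counts each), and 90.04 of miR-1731-3p. HH18 replicate 6 held 109 of miR-1462-5p and 134 of miR-1754-5p, and was low for miR-1761 with 682 against 1106 to 1128. HH18 replicate 8 held 30.5 of miR-1651-3p. At HH22, replicate 3 stood apart with 55.7 of miR-1462-3p, 32.97 of miR-1641 and 17.6 of miR-1741, and replicate 2 with 42.7 of miR-1731-5p.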

How the results depend on the processing

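The count of members past the threshold was 9 (4 higher, 5 lower), against 52 of all 356 features. It was 2 with no filter (0 higher, 2 lower) and 15 when scaled without the 5 most abundant features (4 higher, 11 lower), against 24 of 651 and 71 of 355 features; with no filter 94 members enter and more features share the adjustment. The higher count alone was 1 with a minimum of 10 normalized counts, 2 with a pseudocount of 5, 1 after thinning to equal depth, 2 on the deposited log2 values and 2 without HH18 replicates 5 and 6. Leaving out 1 library gave 2 to 14 members (1 to 10 higher, 1 to 5 lower), lowest without HH22 replicate 1 (27 of 322 features) and highest without HH18 replicate 7 (66 of 334), where members left with 0 HH18 reads add to the higher calls; without an HH22 library, members with 0 HH18 reads cannot meet the filter. Of the 9, the same 9 passed under TMM scaling, library size scaling, a pseudocount of 0.5 and without the 5 most abundant features. Nothing is read from this for the 4 higher ones, which met the membership rule and the filter through the HH22 libraries alone.

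The sign kept for 34 of 43 named members tested, in every alternative that gave a value. Scaled without the 5 most abundant features it turned for miR-1451-5p (-0.20), miR-1591-5p (-0.42), miR-1677-3p (-0.23) and miR-1720-3p (-0.43). Library size scaling turned miR-1591-5p (-0.031) and miR-1720-3p (-0.042), thinning miR-1462-3p (-0.057), a pseudocount of 5 miR-1591-3p (-0.066), voom miR-1591-3p (-0.50) and miR-1720-3p (-0.15), and the deposited log2 values miR-1591-3p (-0.015), miR-1591-5p (-0.039) and miR-1720-3p (-0.013). Without HH18 replicates 5 and 6 it turned for miR-1451-5p (-0.35), miR-1454 (0.082), miR-1462-3p (-0.62), miR-1591-3p (-2.25), miR-1720-3p (-0.33) and miR-1729-3p (0.13). With 1 library left out the sign varied for miR-1451-5p (-0.32 to 0.65), miR-1591-3p (-0.54 to 1.44), miR-1591-5p (-0.60 to 0.50), miR-1718 (-1.06 to 0.82), miR-1720-3p (-0.42 to 0.25) and miR-1729-3p (-1.58 to 0.26). The arm ratio difference of miR-1712 turned to 0.063 with 0.5 read added and ranged from -1.26 to 0.65 with 1 library left out, and that of miR-1591 from -0.77 to 1.91. The causes were not tested. With 3 against 4 libraries the smallest exact p is 0.0571, so no arm ratio could pass there. No paired analysis was possible because the groups compared share fewer than 2 replicate numbers.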
